A study of Mus musculus with 40 samples.

Results

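Genes for splicing factors, heterogeneous nuclear ribonucleoproteins (hnRNPs) and RNA helicases were followed in mouse embryos exposed to 4CP, 4-hydroperoxycyclophosphamide, which turns into the active form of the alkylating drug cyclophosphamide without liver enzymes. Members were all probes named with a single gene symbol that starts with Snrp, Srsf, Sf3, U2af, Prpf, Lsm and a digit, Hnrnp, Ddx or Dhx. This gave 92 genes of the 6970 that were named, read by 144 probes of 15279, with 75 probes of 7680 on array design 1 and 69 of 7599 on array design 2. The designs carry different probes, and 19 of the genes were measured on both.

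Total RNA of embryos kept for 5 h at 37 °C with 40 µM 4CP was hybridised with RNA of untreated control embryos on 2-colour arrays. Each of the 40 arrays carried both, so they form 1 group, 4CP 5 h against control, with 5 replicates per design. For strain, embryo age and the pooling of embryos, nothing is stated in the sources used here. Every replicate had 4 arrays per design, which were both dye orientations and 2 readouts of each slide. One readout of replicate 4 on array design 1 lacked 786 of 7680 values (10.2%) and was left out of every value below unless stated. Only the labels show that replicates are separate, so p-values reflect a spread that may be technical, and the number of arrays limits the precision.

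Values are log2 ratios of treated over control, set against the median probe of each array. The labels do not state the numerator. It was taken to be channel 1, and the likely direction rests on this order and on the p53 targets Ccng1 and Mdm2, whose 5 probes had means from 0.75 to 2.90 when read as treated over control. With the opposite numerator all signs below would turn. The base of the logarithm is not stated, and every fold assumes base 2. Before centring, the median of all probes lay between −0.66 and −0.12 in the 10 replicate values, so a probe above 0 below is one that lies above its array's median. A ratio gives no level, so the tissue could not be checked against the abundance of its markers. In whole embryos, fewer cells of a type and less RNA per cell cannot be told apart.

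Introns are removed by the spliceosome, which is built from small nuclear ribonucleoproteins. Snrp genes encode the Sm ring and other proteins of these particles, Lsm genes the related rings on U6 and other RNAs, Sf3 and U2af genes the factors that mark the branch point and the 3′ splice site, and Prpf genes proteins of the later complexes. SR proteins (Srsf) and hnRNPs bind nascent transcripts and steer which exons are kept. DEAD-box (Ddx) and DEAH-box (Dhx) helicases unwind or remodel RNA in splicing, export, translation and ribosome assembly.

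Promoters are shown for the called Sm ring genes that matched, for Ddx1, which had the smallest p below, and for the called genes that hold the ETS word searched. RefSeq promoters (GRCm38.p6) were matched by symbol for 84 of the 92 genes. Those of Ddx39a, Dhx38, Hnrnpll, Hnrnpul2, Sf3b4, Sf3b5, Snrpb and Snrpd1 were not matched. The 120 bases before the start are printed 5′ to 3′ in the direction of the gene, with any motif found in capitals. They lie at chr7:19149718-19149837 (plus strand, Snrpd2), chr1:133610281-133610400 (minus, Snrpe), chr6:86371420-86371539 (plus, Snrpg), chr12:13249175-13249294 (minus, Ddx1), chr19:5295458-5295577 (minus, Sf3b2) and chr6:117900220-117900339 (plus, Hnrnpf).
Snrpd2: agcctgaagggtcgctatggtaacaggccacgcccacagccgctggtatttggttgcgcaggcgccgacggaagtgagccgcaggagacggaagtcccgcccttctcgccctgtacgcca
Snrpe: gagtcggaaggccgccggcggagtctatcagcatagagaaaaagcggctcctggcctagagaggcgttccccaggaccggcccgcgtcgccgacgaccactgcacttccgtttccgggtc
Snrpg: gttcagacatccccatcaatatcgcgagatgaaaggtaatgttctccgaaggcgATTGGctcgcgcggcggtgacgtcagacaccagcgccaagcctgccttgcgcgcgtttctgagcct
Ddx1: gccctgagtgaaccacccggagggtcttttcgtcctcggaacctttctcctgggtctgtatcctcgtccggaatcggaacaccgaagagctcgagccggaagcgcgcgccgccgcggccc
Sf3b2: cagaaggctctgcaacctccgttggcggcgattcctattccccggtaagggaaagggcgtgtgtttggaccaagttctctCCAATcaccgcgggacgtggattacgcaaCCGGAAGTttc
Hnrnpf: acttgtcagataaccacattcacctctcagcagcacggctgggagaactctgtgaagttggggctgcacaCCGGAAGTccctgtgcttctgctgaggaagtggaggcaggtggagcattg

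Motifs were searched on both strands of the 250 bases before the start, and no searched word contains another. The ETS word CCGGAAGT was in 10 of 84 member promoters (11.9%), against 3.83% of 17492 promoters of all protein-coding genes. CCAAT was in 45.2% of member promoters and 36.4% of all, and TATAAA in 5.95% and 12.4%. The YY1 word AAGATGGCG was in no member promoter and in 0.692% of all, and the palindromic NRF1 word in 1.19% and 1.06%. The median GC content was 60.2% for members and 55.2% for all. Of the 18 genes that passed the test below and had a promoter, 2 held the ETS word, Sf3b2 and Hnrnpf. These matches describe letters only and were not set against any binding data.

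The comparison asked which of these transcripts differed between treated and control embryos. On array design 1, 8 of 75 member probes (10.7%) were called higher, where 10.2% of all probes were. The count of members called lower there was 0, by limma with Benjamini-Hochberg adjustment over all probes, where 5.77% of all probes were called lower. For array design 2, 16 of 69 member probes (23.2%) were called higher, against 19.8% of all probes, and 0 lower, against 8.07%. At an unadjusted p under 0.05, 22 members lay above and 5 below 0 on the first design, and 23 above and 4 below on the second. Among all probes at that p, 1336 lay above and 1397 below of 7680, and 1963 above and 1165 below of 7599. By the ordinary one-sample test, 0 members were called on array design 1 (11 higher and 4 lower at an unadjusted p under 0.05). The same test called 9 higher and 0 lower on array design 2 (18 and 2 unadjusted). Over all probes, the ordinary test called 3 higher and 11 lower on array design 1 (916 and 1226 unadjusted). It called 702 higher and 167 lower on array design 2 (1376 and 1018 unadjusted). By limma, the share of members called higher thus lay near that of all probes on both designs.

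Changes were small. The 24 called probes, for 20 genes, had folds from 1.13 to 1.37. All 24 had a mean above 0 in each of the 2 numbered slide series, 2000 and 3000, and 21 had it in every replicate. The 24 were chosen as higher from these same replicates, so their signs there are no separate support. The median over members was 0.07 on array design 1 and 0.09 on array design 2, against −0.0024 and 0.02 over all probes. Without centring of the arrays the mean of 23 of the 24 was below 0. Then 51 of 75 and 60 of 69 member probes were called lower and 0 higher on the 2 designs, with 0 higher at an unadjusted p under 0.05 on both. The whole arrays moved the same way, with 6338 of all 7680 and 6634 of all 7599 probes called lower, and 60 and 21 higher. With arrays scaled to one spread, the calls were 2 higher and 2 lower members on the first design, against 14 and 1 on the second. Among all probes, 569 were then called higher and 7 lower of 7680, and 1151 higher and 180 lower of 7599. All directions here are therefore relative to the median probe.

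**Figure D1:**
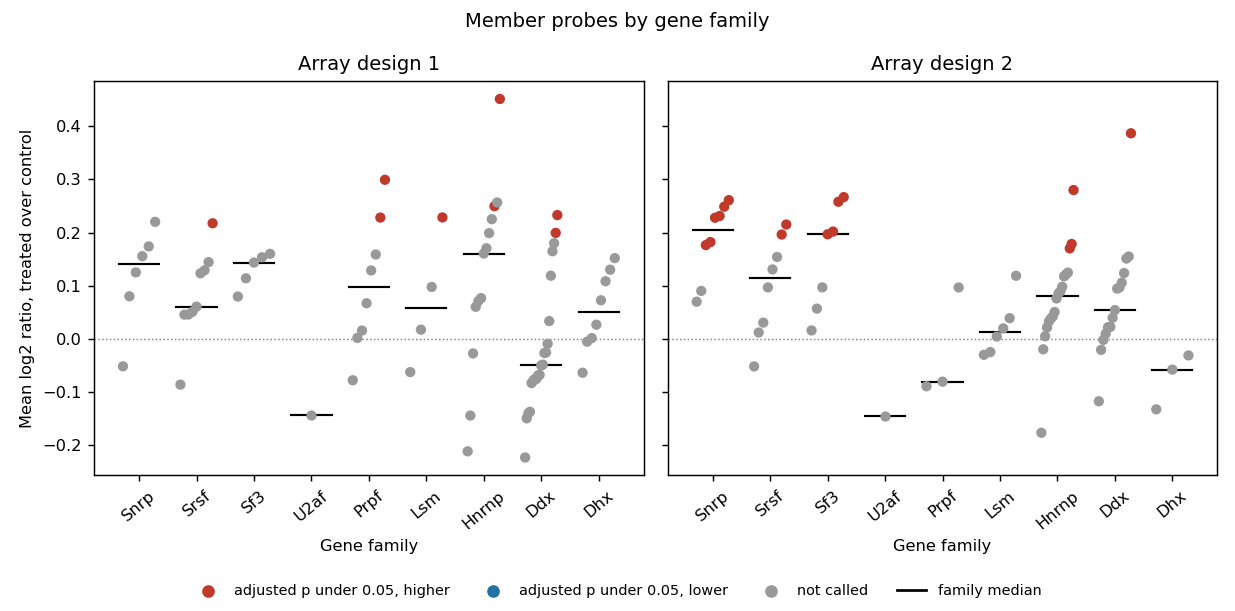
Mean log2 ratio of treated over control (vertical axis) of each member probe by gene family, for both array designs. Each point is 1 probe (mean of 5 replicates, relative to the array median), red where adjusted p is under 0.05, and the black line is the family median. On array design 2 all 8 Snrp and all 7 Sf3 probes lie above 0; without centring every one of them lies below 0.

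Snrp genes encode the Sm ring, which holds the small nuclear RNAs, and proteins of single particles. Of 8 Snrp probes on array design 2, 6 rose and 0 fell, where 19.8% of all probes rose and 8.07% fell. The family median was 0.21. Without centring this median was −0.22. For Snrpd2, an Sm ring subunit, replicates 1 to 5 had 0.32, 0.27, 0.14, 0.23 and 0.28. All lie above 0, and the mean was 0.25 ± 0.07 (SD, n = 5, limma adjusted p = 0.00123). For Snrpe, another Sm ring subunit, 1 probe had 0.46, 0.22, 0.18, 0.23 and 0.22, with replicate 1 far above the rest (0.26 ± 0.11, limma adjusted p = 0.00126). Its other probe there had 0.35, 0.10, 0.07, 0.18 and 0.22 (0.18 ± 0.11, limma adjusted p = 0.0185), and both probes were above 0 in all replicates. The Sm ring subunit Snrpg had 0.27, 0.20, 0.22, 0.13 and 0.32 (0.23 ± 0.07, limma adjusted p = 0.00281). Snrpb, of the same ring, had 0.40, 0.18, 0.20, 0.20 and 0.17 (0.23 ± 0.09, limma adjusted p = 0.0031), again with replicate 1 highest. Snrpc, a U1 protein that helps to recognise the 5′ splice site, rose on 1 probe (0.18 ± 0.07, limma adjusted p = 0.0173) and had 0.07 ± 0.21 on the other. Snrpd1, of the Sm ring, had 0.09 ± 0.10 and did not pass (limma adjusted p = 0.214).

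Of 6 Snrp probes on array design 1, 0 passed, and the family median was 0.14. Snrpe was nearest to the threshold there, with 0.25, 0.01, 0.01, 0.37 and 0.45 (0.22 ± 0.20, limma adjusted p = 0.0518). Replicates 2 and 3 lay near 0 and the other replicates well above it. The Sm ring subunit Snrpf had 0.13 ± 0.12 and the U2 protein Snrpa1 0.16 ± 0.17. The U2 protein Snrpb2 was on 3 probes, with 0.08 ± 0.08, 0.17 ± 0.22 and −0.05 ± 0.25.

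Sf3 genes encode the SF3a and SF3b complexes of the U2 particle, which hold the branch point. Here 4 of 7 probes of array design 2 rose and 0 fell, where 19.8% of all probes rose. The family median was 0.20 (−0.23 without centring). Sf3b5, a small SF3b subunit, had 0.27, 0.36, 0.28, 0.29 and 0.13 in replicates 1 to 5, with replicate 5 lowest (0.27 ± 0.09, limma adjusted p = 0.000743). Sf3b2 had 0.27, 0.18, 0.16, 0.22 and 0.15 on 1 probe, a narrow range above 0 (0.20 ± 0.05, limma adjusted p = 0.00776), and 0.06 ± 0.14 on the other. Sf3b3 had 0.64, 0.21, 0.13, 0.02 and 0.29, so that 1 replicate was near 0 (0.26 ± 0.24, limma adjusted p = 0.00793). Its call ended without replicate 1 (limma adjusted p = 0.0816). Sf3b1, the subunit that clamps the branch point, had 0.37, 0.04, 0.19, 0.22 and 0.20 (0.20 ± 0.12, limma adjusted p = 0.0105). Without replicate 1 its call ended too (limma adjusted p = 0.0665). Sf3b4 and Sf3b6 had 0.10 ± 0.07 and 0.02 ± 0.08. None of the 5 Sf3 probes of array design 1 passed, and their means lay between 0.08 and 0.16, with Sf3b1 at 0.16 ± 0.11 (limma adjusted p = 0.0779). Sf3b3 had 0.15 ± 0.15, Sf3a3 0.14 ± 0.15, Sf3a2 0.11 ± 0.10 and Sf3b2 0.08 ± 0.17 there.

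U2af was represented by U2af1l4, a relative of the small U2AF subunit that reads the 3′ splice site. It was below 0 in every replicate on both designs, with −0.15, −0.24, −0.13, −0.06 and −0.14 on array design 1 and −0.01, −0.29, −0.04, −0.09 and −0.30 on array design 2. Neither mean passed the test, at −0.14 ± 0.07 (limma adjusted p = 0.0897) and −0.15 ± 0.14 (limma adjusted p = 0.0613).

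SR proteins gave 1 probe of 9 that rose on array design 1 and 2 of 8 on array design 2, where 10.2% and 19.8% of all probes rose. With 0 that fell, the medians were 0.06 and 0.11. Srsf11, an SR-related protein, rose on both designs. Its called probe on array design 1 had 0.27, 0.10, 0.15, 0.16 and 0.40 (0.22 ± 0.12, limma adjusted p = 0.0316). The probe on array design 2 had 0.38, 0.29, 0.06, 0.16 and 0.09 (0.20 ± 0.14, limma adjusted p = 0.0152), all above 0 as well. Srsf1, the founding SR protein, had 0.34, 0.19, 0.05, 0.20 and 0.30 on array design 2 (0.22 ± 0.11, limma adjusted p = 0.00657). Srsf5 and Srsf6 had 0.15 ± 0.15 and 0.13 ± 0.11 there and did not pass. Srsf4 had 0.10 ± 0.06 and −0.05 ± 0.08 on its 2 probes, and Srsf12 on array design 1 had −0.09 ± 0.15. The second Srsf11 probe of array design 1 had 0.05 ± 0.14. Srsf10 had 0.14 ± 0.12 on array design 1 and 0.03 ± 0.16 on array design 2.

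Srsf2 and Srsf3, SR proteins that set exon inclusion, had wide spreads, lowest in replicate 3 and highest in replicate 5 on every probe of array design 1. The 2 Srsf2 probes of array design 1 had 0.21, −0.05, −0.32, 0.17 and 0.61 and 0.22, −0.02, −0.34, 0.21 and 0.58. The 3 Srsf3 probes ran from −0.44 to −0.28 in replicate 3 and from 0.43 to 0.47 in replicate 5. Their means were 0.12 and 0.13 for Srsf2 and 0.05, 0.05 and 0.06 for Srsf3. Srsf2 on array design 2 had 0.21, −0.19, −0.24, 0.02 and 0.25. The family median over all Srsf probes was −0.28 in replicate 3 and 0.43 in replicate 5 of array design 1, and the Hnrnp median was −0.11 and 0.46, while that of Ddx probes was −0.06 and 0.09. All probes together had 0.05 and −0.09 in these replicates. Replicate 5 of array design 1 had the largest share of variance taken up by the dye-profile trend described below, 74.0%. Replicate 3 had 44.4%, and the part of the trend in these medians was not tested. With that trend removed, the Srsf median was −0.26 in replicate 3 and −0.02 in replicate 5. The Hnrnp median was then −0.16 and −0.0044.

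Prpf genes encode proteins of the U4/U6.U5 particle and of the active spliceosome. Of 8 probes on array design 1, 2 rose and 0 fell, where 10.2% of all probes rose, and the median was 0.10. Prpf38a, needed for activation of the spliceosome, had 0.29, 0.07, 0.22, 0.44 and 0.48 (0.30 ± 0.17, limma adjusted p = 0.0132). Prpf19, the ubiquitin ligase of the activation complex, had 0.28, 0.04, 0.05, 0.41 and 0.35 (0.23 ± 0.17, limma adjusted p = 0.0377), with replicates 2 and 3 near 0. Prpf8, the scaffold of the catalytic core, had 0.16 ± 0.17 and did not pass (limma adjusted p = 0.108). Of the family, the U4/U6 and U5 proteins Prpf3, Prpf31 and Prpf6 had 0.07 ± 0.19, −0.08 ± 0.11 and 0.0017 ± 0.21 there. Prpf38b had 0.02 ± 0.08 and 0.13 ± 0.13 on its 2 probes. Of 3 probes on array design 2, 0 passed, at −0.08 ± 0.13 and 0.10 ± 0.18 for Prpf31 and −0.09 ± 0.15 for the kinase Prpf4b.

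Lsm genes gave 1 probe of 4 that rose on array design 1 and 0 of 6 on array design 2, where 10.2% and 19.8% of all probes rose. The medians were 0.06 and 0.01 (0.09 and −0.0019 with arrays scaled to one spread). Lsm2, of the ring on U6, had 0.04, 0.10, 0.26, 0.34 and 0.40 (0.23 ± 0.15, limma adjusted p = 0.0337). Lsm7, of the same ring, had 0.02 ± 0.13 and 0.10 ± 0.20 on its 2 probes. Lsm8, which is specific to the nuclear ring, had 0.18, 0.14, 0.14, 0.16 and −0.02 on array design 2, short of the threshold (0.12 ± 0.08, limma adjusted p = 0.096). Only replicate 5 lay below 0. Lsm10, of the U7 particle for histone mRNA, had 0.02 ± 0.12, and Lsm14b −0.02 ± 0.18. Lsm14a had −0.06 ± 0.07 on array design 1 and means of 0.0044, −0.03 and 0.04 on its 3 probes of array design 2.

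Among hnRNPs, 2 of 13 probes rose on array design 1 and 3 of 18 on array design 2, where 10.2% and 19.8% of all probes rose. With 0 that fell, the medians were 0.16 and 0.08. Hnrnpa3, a relative of the splicing repressor Hnrnpa1, rose on both designs. One probe on array design 1 had 0.10, 0.37, 0.49, 0.43 and 0.86, the highest mean of the members there (0.45 ± 0.27, limma adjusted p = 0.00575). The other probe of that design had 0.20, 0.08, −0.24, 0.42 and 0.67 and did not pass (0.23 ± 0.34, limma adjusted p = 0.114). Its probes on array design 2 had 0.39, 0.26, 0.20, 0.23 and 0.32 (0.28 ± 0.07, limma adjusted p = 0.000398) and 0.39, 0.11, −0.01, 0.18 and 0.23 (0.18 ± 0.15, limma adjusted p = 0.0278). Of these 20 replicate values, those below 0 were both from replicate 3.

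Hnrnpf, which binds G-rich splicing enhancers, had 0.22, 0.15, −0.09, 0.43 and 0.54 on array design 1 (0.25 ± 0.25, limma adjusted p = 0.0472), so its SD was as large as its mean. Hnrnpk, which binds C-rich RNA, had 0.18, 0.21, 0.15, 0.17 and 0.14 on 1 of 3 probes of array design 2. This was the narrowest spread of the called probes (0.17 ± 0.03, limma adjusted p = 0.0179). Its other probes there had 0.12 ± 0.16 and −0.02 ± 0.16. Hnrnpm, an hnRNP of the nuclear matrix, had 0.26 ± 0.30 on array design 1, short of the threshold (limma adjusted p = 0.0618). Hnrnpu, the scaffold attachment factor, had 0.20 ± 0.27 on array design 1 and 0.12 ± 0.11 and 0.10 ± 0.11 on array design 2. The core hnRNP genes Hnrnpa1 and Hnrnpa2b1 had means from 0.0048 to 0.08 over their 3 and 2 probes on the 2 designs. Hnrnpc, which binds uridine tracts, had −0.03 ± 0.16, 0.17 ± 0.26 and 0.16 ± 0.25 on array design 1. Hnrnph2, Hnrnpab, Hnrnpl, Hnrnpr, Hnrnpul2 and Hnrnpa0 had means from 0.02 to 0.12 on array design 2, and Hnrnpll had 0.06 ± 0.16 on array design 1.

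Hnrnpdl and Hnrnpd, close relatives that bind AU-rich RNA, lay at the low end of the family. Hnrnpdl had −0.23, −0.28, −0.49, −0.08 and 0.02 on array design 1 and 0.19, −0.49, −0.19, −0.20 and −0.20 on array design 2. One replicate of each design was above 0 and the rest below it. The means were −0.21 ± 0.19 (limma adjusted p = 0.0562) and −0.18 ± 0.24 (limma adjusted p = 0.0575), just short of the threshold. Hnrnpd had 0.09, −0.37, −0.67, 0.05 and 0.17, with a mean of −0.14 ± 0.36 (limma adjusted p = 0.328). Without replicate 5, Hnrnpdl and Hnrnpd on array design 1 were called lower (limma adjusted p = 0.0079 and 0.0387), and without replicate 1 so was Hnrnpdl on array design 2 (limma adjusted p = 0.0117). Hnrnpdl was also called lower on both designs with arrays scaled to one spread (limma adjusted p = 0.0148 and 0.0404) and with a position trend removed (limma adjusted p = 0.0494 and 0.0247). Its orientations had opposite signs, 0.09 in channel 1 and −0.51 in channel 2 on array design 1, and 0.05 and −0.40 on array design 2.

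DEAD-box helicases gave 2 of 21 probes that rose on array design 1 and 1 of 15 on array design 2, where 10.2% and 19.8% of all probes rose. With 0 that fell, the medians were −0.05 and 0.05. Ddx1, a helicase of the tRNA ligase complex, had 0.44, 0.30, 0.28, 0.31 and 0.60 on array design 2. This was the highest mean and the smallest p of the members there (0.39 ± 0.13, limma adjusted p = 2.78e-05). Its orientations disagreed, with −0.59 where treated embryos were in channel 1 and 1.36 where they were in channel 2, and with a dye part of −0.97. Ddx41, a helicase of the spliceosome, had 0.14, 0.08, 0.16, 0.36 and 0.26 on array design 1 (0.20 ± 0.11, limma adjusted p = 0.0393). Ddx19b, of mRNA export at the nuclear pore, had 0.34, −0.01, 0.19, 0.45 and 0.19 (0.23 ± 0.17, limma adjusted p = 0.0355) on 1 probe and −0.07 ± 0.11 on the other.

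Among the DEAD-box genes that did not pass, those of ribosome assembly lay on both sides of 0. Ddx24 and Ddx10 had 0.18 ± 0.10 and 0.16 ± 0.11 on array design 1, where Ddx55 had −0.15 ± 0.10 and −0.14 ± 0.08, below 0 in every replicate of both probes. Ddx51 had −0.08 ± 0.04, also below 0 in all replicates. Ddx18, Ddx21, Ddx27, Ddx31 and Ddx52 had means from −0.07 to 0.12 on that design, and Ddx18, Ddx27 and Ddx52 had 0.02, 0.04 and 0.11 on array design 2. Ddx47, Ddx54 and Ddx56 had 0.05 ± 0.21, 0.15 ± 0.25 and −0.0019 ± 0.12 on array design 2. Of the splicing helicases, Ddx46 had −0.08 ± 0.20 and Ddx42 0.12 ± 0.10. The paired coregulators Ddx5 and Ddx17 had 0.10 ± 0.15 and 0.15 ± 0.15 for Ddx5 and −0.08 ± 0.30 and 0.01 ± 0.18 for Ddx17. The export helicases Ddx39a and Ddx39b had −0.03 ± 0.21 and 0.09 ± 0.19. Ddx20, of the SMN complex that loads Sm rings, had 0.02 ± 0.18 and −0.02 ± 0.12. Ddx4, a marker of germ cells, had −0.12 ± 0.09, and Ddx58, the viral RNA sensor RIG-I, −0.08 ± 0.07.

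DEAH-box helicases gave 0 called probes of 8 on array design 1 and 0 of 3 on array design 2. Higher calls made up 10.2% and 19.8% of all probes. Dhx8, which releases spliced mRNA, was above 0 in every replicate with 0.09, 0.14, 0.16, 0.22 and 0.14, but missed the threshold (0.15 ± 0.05, limma adjusted p = 0.0715). The splicing helicases Dhx15, Dhx16 and Dhx38 had 0.13 ± 0.21, 0.11 ± 0.10 and −0.03 ± 0.14. Dhx40 had −0.13, −0.18, −0.24, 0.01 and −0.12 on array design 2 (−0.13 ± 0.09, limma adjusted p = 0.0688). Dhx36, which unwinds G-quadruplexes, had 0.0014 ± 0.18, 0.07 ± 0.08 and −0.06 ± 0.15 on its 3 probes. Dhx29, Dhx30 and Dhx37 had −0.06 ± 0.17, −0.0052 ± 0.06 and 0.03 ± 0.10.

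**Figure D2:**
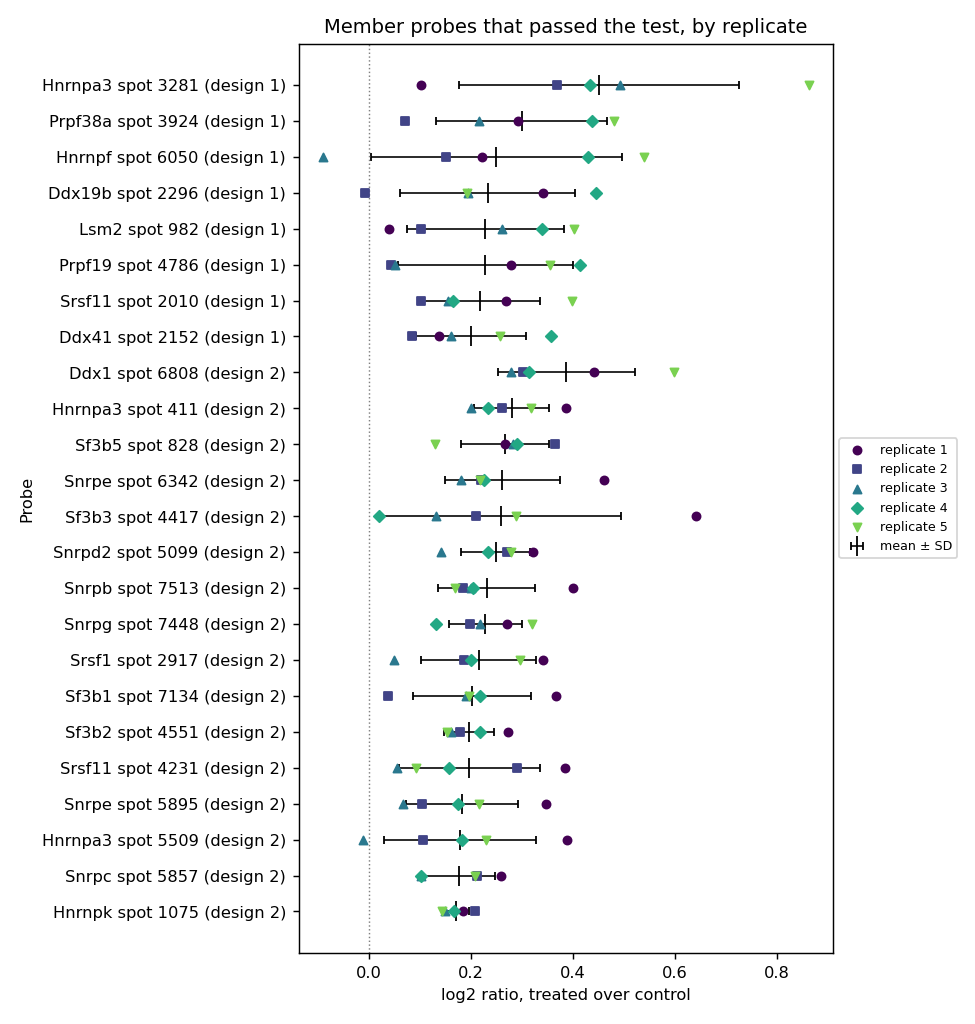
Log2 ratio of treated over control (horizontal axis) in each of 5 replicates for the 24 member probes that passed the test, with mean and SD. Values are relative to the array median, and without centring 23 of the 24 means lie below 0. The spread differs between probes: Hnrnpa3 runs from 0.10 to 0.86 on array design 1 while Hnrnpk runs from 0.14 to 0.21 on array design 2.

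The calls on array design 1 rested on few arrays. Each of the 8 lost its call without replicate 4, when limma called 0 members there (11 higher and 4 lower at an unadjusted p under 0.05) and 82 probes in all. With the failing readout of replicate 4 kept, 0 members passed (18 higher and 5 lower unadjusted) and 50 probes in all. No call among the 8 held in each of the fits without 1 replicate, and 5 members were called without replicate 1 and 5 without replicate 2. Over all probes, 583 were called without replicate 1 and 659 without replicate 2. Leaving out replicate 5 gave 3 higher and 3 lower members, of which Ddx3x, Hnrnpd and Hnrnpdl were the lower ones. In that fit, 610 of all 7680 probes were called higher and 67 lower. Of the 16 on array design 2, 9 kept their call whichever replicate was left out. These were 1 probe each of Ddx1, Hnrnpa3, Sf3b2, Sf3b5, Snrpb, Snrpd2, Snrpe, Snrpg and Srsf1. Arrays of a single orientation, in which the dye part does not cancel, gave 7 called members for treated embryos in channel 1 and 1 for channel 2. Over all probes of array design 2, these orientations gave 1190 and 117 calls.

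A probe's dye part is its mean ratio of channel 1 over channel 2 when the orientations are not turned, and probes with like dye parts across replicates also had like treated over control ratios. A smooth trend of the ratios on this dye profile held from 34.4% to 74.0% of a replicate's variance on array design 1 and from 35.3% to 61.6% on array design 2. Members sat high on it. The fitted trend was above 0 for 64 of 75 and 59 of 69 member probes, against 50.9% and 57.5% of all probes, and its median over members was 0.14 and 0.17, against 0.0027 and 0.02 over all probes.

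With this trend removed, none of the 24 calls was kept and the members called were lower ones. On array design 1, limma then called 0 of 75 members higher, where 1% of all probes were, and 4 lower, where 0.56% of all probes were. For array design 2 it called 0 of 69 higher, where 3.18% were, and 6 lower (8.7%), where 1.83% were. At an unadjusted p under 0.05 there were 4 higher and 18 lower members, and 1 higher and 15 lower. Among all probes in this fit, 592 were higher and 497 lower of 7680, and 861 higher and 763 lower of 7599. The sign of the mean was kept for 18 of the 24 probes called before. Snrp and Sf3 medians on array design 2 went to 0.01 and 0.04, and the Hnrnp medians to −0.06 and −0.10 on the 2 designs. The Srsf median on array design 1 was −0.17. The trend is fitted on the same arrays as the ratios, so noise of single arrays enters both, and how much of the trend is a treatment effect was not tested.

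**Figure D3:**
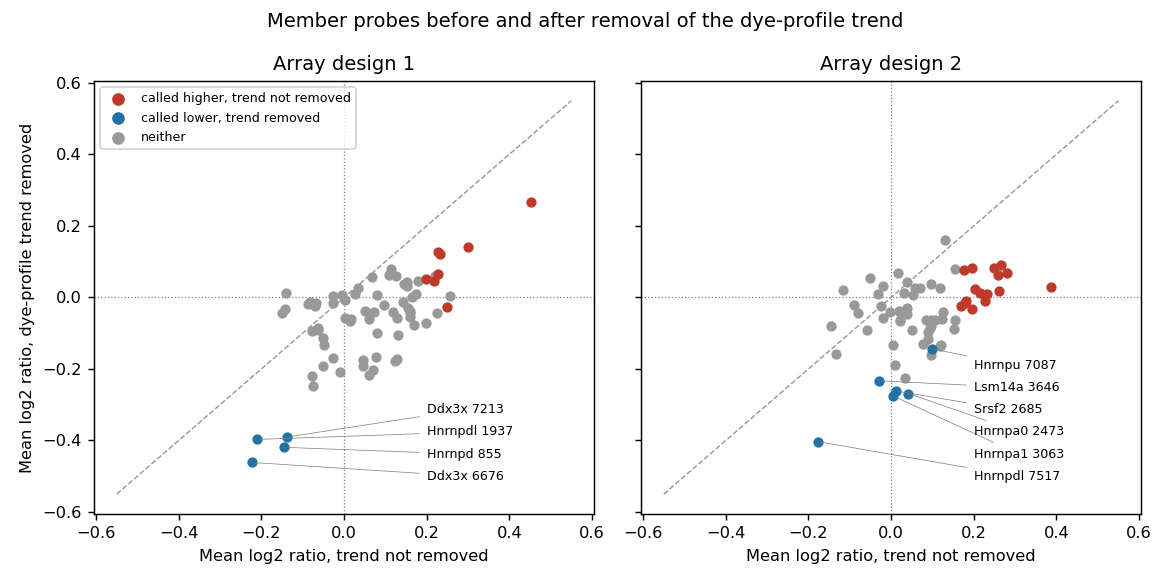
Mean log2 ratio of each member probe before (horizontal axis) and after (vertical axis) removal of the dye-profile trend, for both array designs; the dashed line marks equal values. Red points passed the test as higher before removal and blue points as lower after it. Most members lie below the dashed line, and Ddx3x, Hnrnpd and Hnrnpdl lie lowest.

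The members called lower after removal were RNA-binding proteins and 1 helicase. Ddx3x, an X-linked helicase of translation initiation, was called on 2 of its 3 probes, with −0.46 ± 0.12 (limma adjusted p = 0.00146) and −0.39 ± 0.07 (limma adjusted p = 0.00112). Hnrnpdl was called on both designs, with −0.40 ± 0.15 (limma adjusted p = 0.00843) and −0.40 ± 0.21 (limma adjusted p = 0.0122). Hnrnpd had −0.42 ± 0.21 (limma adjusted p = 0.0234). These probes had means below 0 before removal as well, from −0.22 to −0.14.

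For 4 of the other 5, all on array design 2, the mean before removal was above 0, so that the direction depended on this step. They were Srsf2 (0.01 before and −0.26 ± 0.18 after, limma adjusted p = 0.0382), Hnrnpa0 (0.04 and −0.27 ± 0.19, limma adjusted p = 0.0405), a probe of Hnrnpa1 (0.0048 and −0.28 ± 0.21, limma adjusted p = 0.0476) and a probe of Hnrnpu (0.10 and −0.14 ± 0.06, limma adjusted p = 0.0476). Lsm14a, a protein of cytoplasmic P-bodies, had −0.03 before and −0.23 ± 0.05 after (limma adjusted p = 0.0066) on 1 of its 3 probes there. Hnrnpa3 stayed highest among the hnRNPs, at 0.27 ± 0.21 on array design 1, short of the threshold (limma adjusted p = 0.116). Ddx1 went to 0.03 ± 0.02.

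**Figure D4:**
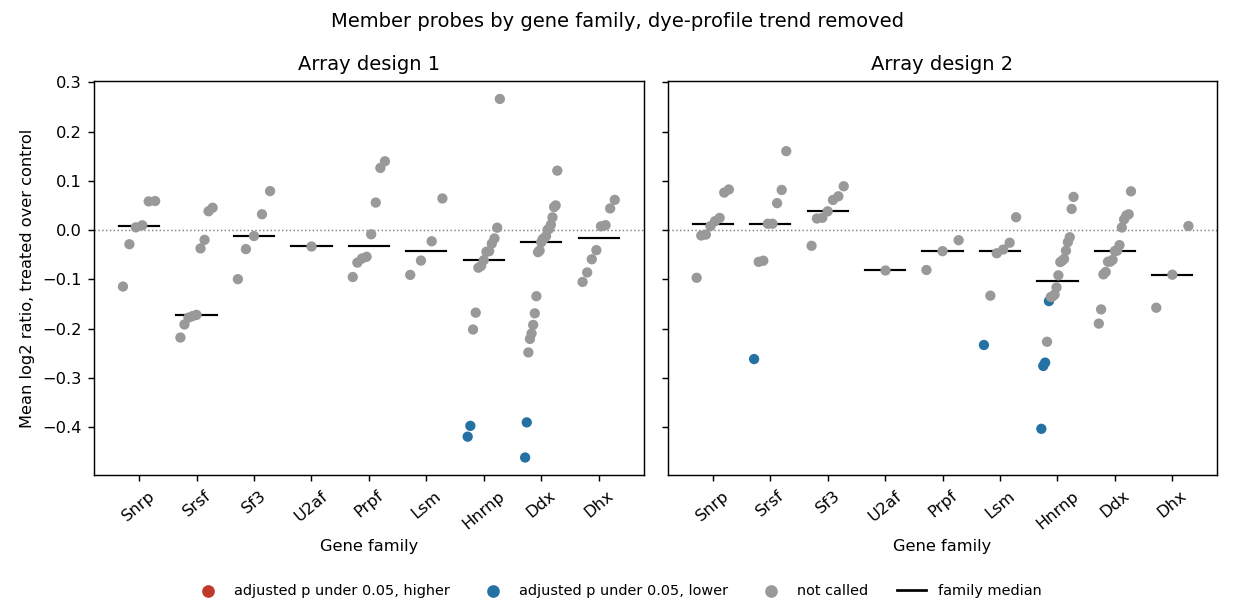
Mean log2 ratio of treated over control (vertical axis) of each member probe by gene family after removal of the dye-profile trend, for both array designs. Each point is 1 probe (mean of 5 replicates), blue where called lower at an adjusted p under 0.05, and the black line is the family median. All 10 called probes are lower, and 6 of them are Hnrnp probes.

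Genes measured on both designs offer different probes for one transcript. Of the 19 such member genes, Hnrnpa3 and Srsf11 had a called probe on both, and the values of each design stand above. The like share of all 943 genes on both designs was not counted. By the mean over a gene's probes, 15 of the 19 had the same sign on both (13 above and 2 below 0), against 67.8% of all 943. Of the 943, 46.3% were above 0 on both designs and 21.4% below. With the dye-profile trend removed, 17 of the 19 did (5 above and 12 below 0), against 62.8% of the 943 (29.1% above and 33.7% below). The designs share replicate numbers, dose and time, and the labels do not say whether they share RNA, so values of one design are not taken as independent of the other.

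A total of 35 member genes had several probes, up to 4 each, and the probes were compared within a design. No pair differed by limma with adjustment over all same-gene pairs of the design, 0 of 23 on array design 1 and 0 of 17 on array design 2. Over all genes, 0% of 1204 pairs and 5.75% of 991 pairs differed. At an unadjusted p under 0.05, 4 and 6 member pairs differed by limma, and 1 and 4 by the ordinary one-sample test, which called 0 after adjustment. Over all genes, 254 of 1204 and 278 of 991 pairs differed by limma at that unadjusted p. A pair that misses the threshold is not shown to be alike, and the intervals below are 95% confidence intervals.

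Ddx3x had 3 probes on array design 1. Probe 6676 had −0.07, −0.33, −0.56, −0.13 and −0.02, below 0 in every replicate, with a mean of −0.22 ± 0.22 (limma adjusted p = 0.057). Probe 7213 had −0.13, −0.14, −0.49, −0.02 and 0.09 (−0.14 ± 0.22, limma adjusted p = 0.209). Probe 3860 had −0.13, −0.15, −0.16, −0.02 and 0.21 (−0.05 ± 0.15, limma adjusted p = 0.625), and replicate 5 was the highest one on each of the 3 probes. Probe 3860 exceeded 6676 by 0.17 (interval 0.02 to 0.33) and 7213 by 0.09 (interval −0.06 to 0.23). Probe 6676 was lower than 7213 by 0.09 (difference −0.09, interval −0.19 to 0.02). None of these differences passed, with limma adjusted p of 0.209, 0.453 and 0.323. After removal of the trend the probes had −0.19 ± 0.11, −0.46 ± 0.12 and −0.39 ± 0.07 in the order 3860, 6676 and 7213. Ddx3x has a close relative on the Y chromosome, and whether a probe reads both cannot be told from the files.

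**Figure D5:**
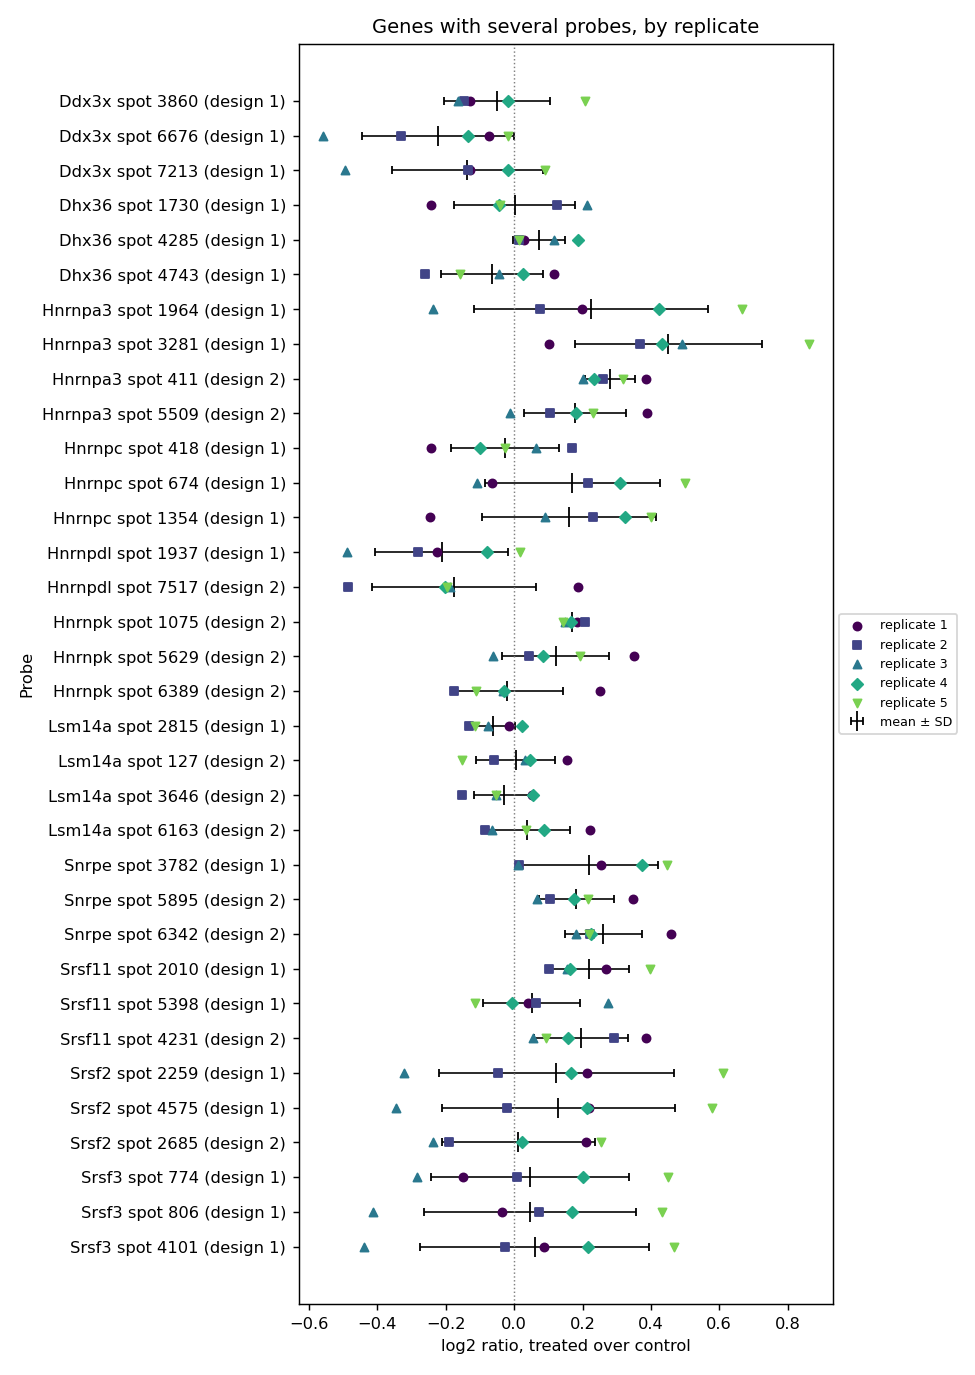
Log2 ratio of treated over control (horizontal axis), relative to the array median, in each of 5 replicates with mean and SD, for 11 member genes with several probes. Both Srsf2 probes of array design 1 lie close together in each replicate (difference −0.0056 ± 0.03), and all 3 Ddx3x probes have means below 0 (−0.05 to −0.22).

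Some of the closest pairs were in the SR proteins, but other SR pairs lay wider apart. Srsf4 on array design 2 differed by 0.15 ± 0.10 (interval 0.04 to 0.26, limma adjusted p = 0.0908). Srsf11 on array design 1 differed by 0.17 ± 0.24 (interval −0.04 to 0.38, limma adjusted p = 0.331). The 2 Srsf2 probes of array design 1 differed by −0.0056 ± 0.03 (interval −0.09 to 0.07), although each ran from its lowest in replicate 3 to its highest in replicate 5. The 3 Srsf3 probes differed by at most 0.02 in their means, with SDs of the differences from 0.08 to 0.14. For Hnrnpa1 on array design 2, the 2 probes differed by 0.03 ± 0.02 (interval −0.05 to 0.11). The Ddx55 probes and 2 of the Hnrnpc probes of array design 1 also had close means, with differences of −0.0093 ± 0.17 and 0.01 ± 0.14.

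Other pairs lay wider apart. For Ddx19b the difference was −0.30 ± 0.27 (interval −0.54 to −0.06, limma adjusted p = 0.155). The 2 Snrpb2 probes farthest apart differed by 0.23 ± 0.15, above 0 in all 5 replicates (interval 0.08 to 0.37, limma adjusted p = 0.112). Prpf31 on array design 2 came nearest to the threshold, with −0.18 ± 0.08 (interval −0.27 to −0.08, limma adjusted p = 0.0542), and 0.04 after removal of the trend. The called Hnrnpk probe exceeded the lowest of the other two by 0.19 ± 0.16 (interval 0.04 to 0.34, limma adjusted p = 0.102). The called Sf3b2 probe exceeded the other one by 0.14 ± 0.10, a difference of −0.14 in the order tested (limma adjusted p = 0.102). For Ddx19b, Hnrnpk and Sf3b2, 1 probe was called and another was not, while the test of the difference between them did not pass.

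Other spliceosome and RNA-processing genes were described the same way. Of 90 probes on array design 1, 6 rose and 2 fell, with a median of 0.08, where 10.2% of all probes were called higher and 5.77% lower. Rbm17, a splicing factor that acts with the SF3b complex, rose by 0.32 ± 0.16 (limma adjusted p = 0.00909), and the cyclophilin Ppil1 and the splicing regulator Ptbp3 by 0.21 ± 0.07 and 0.22 ± 0.14. Celf1, a regulator of alternative splicing, and Eftud2, the GTPase of the U5 particle, had −0.20 ± 0.11 and −0.18 ± 0.10 and were called lower (limma adjusted p = 0.0413 and 0.0489). Their other probes did not share this sign: Eftud2 had 0.14 ± 0.08 on array design 2, above 0 in 5 of 5 replicates (limma adjusted p = 0.0516), and Celf1 had means from 0.05 to 0.08 on 3 more probes. Rbm17 likewise had −0.09 ± 0.21 on array design 2. Of 80 probes on array design 2, 22 rose and 2 fell, with a median of 0.05, against 19.8% and 8.07% of all probes. Zmat2, a protein of the precatalytic spliceosome, rose by 0.44 ± 0.10 (limma adjusted p = 4.94e-06), and Sap18 and Alyref, of the exon junction complex and mRNA export, by 0.28 ± 0.10 and 0.29 ± 0.13. The lower calls were Coil, the scaffold of Cajal bodies (−0.28 ± 0.29), and Smndc1, a splicing factor related to SMN (−0.16 ± 0.15). Another Smndc1 probe of that design had −0.03 ± 0.18 and did not pass. With the trend removed, the counts that rose and fell were 0 and 1 on the first design and 2 and 4 on the second (2 and 12, and 9 and 16, at an unadjusted p under 0.05 by limma). Of all probes, 1% rose and 0.56% fell on the first design in that fit, and 3.18% rose and 1.83% fell on the second. Unadjusted, 592 rose and 497 fell of all 7680 probes, and 861 rose and 763 fell of all 7599. Zmat2 was among those that rose, with 0.27 ± 0.14 (limma adjusted p = 0.0204). The Zmat2 probe of array design 1 did not share this. It had 0.12 ± 0.13 before removal (limma adjusted p = 0.175) and −0.07 ± 0.08 after it.

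Markers of other cell types were read in the same fits. On array design 2, 11 probes read 6 erythroid markers, and 7 were higher and 0 lower. Among all probes, 19.8% were higher and 8.07% lower. The erythroid means ran from −0.02 to 0.63, with a median of 0.50 and replicate medians from 0.29 to 0.52. With the trend removed, 5 were higher, where 3.18% of all probes were. For array design 1, 0 of 2 erythroid probes, 0 of 4 visceral endoderm probes (median −0.10) and 1 of 7 placenta and decidua probes, a lower one, were called. On that design 10.2% of all probes were called higher and 5.77% lower. The 2 placenta and decidua probes of array design 2 read 1 gene and had opposite signs, at −0.18 (called lower) and 0.03. As ratios give no levels, the summed level of these lists could not be given, and their part in the results above was not tested.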

How the data were processed

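The authors' deposited values are uncentred log ratios of the 2 channels of each spot, used as log2. Nothing on base, numerator, scanner, background correction or normalization is stated in the sources used here. Channel 1 was taken as numerator, and the treated channel came from the labels' source names.

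Members and gene lists were chosen with earlier results of these data known. Probes were named through the platform annotation (4749 probes with 1 symbol, 227 with several and 2704 with none on array design 1, and 4935, 275 and 2470 on array design 2). Of those with 1 symbol, 4712 and 4884 matched the GRCm38.p6 gene table, and no name changed. Spots of 1 accession were averaged.

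Each array was centred on its median, control-over-treated ratios were turned, and readouts and then orientations were averaged to 1 value per replicate. A readout lacking over 5% of its values was left out. For each design, limma 3.58.1 (R 4.3.3; lmFit, eBayes) compared the replicate values of every probe with 0, two-sided, with Benjamini-Hochberg adjustment over all probes, a threshold of 0.05 and at least 3 replicates. Differences between probes of 1 gene had the same test. The dye-profile trend was a smooth of each replicate (mgcv 1.9.3) on 3 principal components of the unturned means. The limma fit was tested on simulated data with independent noise for each probe, sized as with the trend removed. Those data held no shared trend, so they do not test the centring, the trend removal or calls made with the trend present.

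Probes named are, per family and design, the up to 2 called ones per direction with the smallest p and one sign, or else the probe with the smallest p, and genes with several probes. The others, and Ccng1 and Mdm2, were added after their values were seen. Of the other RNA-processing genes, up to 3 per direction were named. Alternatives covered centring, scaling, readouts, orientations, a position trend, slide series, the test and leaving out each replicate.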

Additional observations from a re-analysis of the deposited data

Results flagged for a closer look

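In 7 of the 144 member probes, 1 replicate lay far from the other 4, past Dixon's critical value of 0.71 for 5 samples, which chance passes in about 1 of 20 groups. On array design 2, Snrpe (spot 6342) had 0.46 in replicate 1, against 0.18 to 0.23 in the others. Snrpb had 0.40 in the same replicate, against 0.17 to 0.20. Lsm8 had −0.022 in replicate 5, against 0.14 to 0.18, and Ddx4 had 0.042, against −0.19 to −0.13. On array design 1, 1 probe of Snrpb2 (spot 2124) had −0.20 in replicate 1, against 0.23 to 0.33. Ddx24 had 0.015 in replicate 2, against 0.19 to 0.26, and Ddx31 had 0.083 in replicate 4, against −0.077 to −0.032.

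Among the other RNA-processing genes named, 5 probes passed the same value. Ptbp3 on array design 1 had −0.12 in replicate 1 on spot 417, against 0.11 to 0.15, and 0.46 in replicate 4 on spot 6811, against 0.12 to 0.21. Smndc1 on array design 2 (spot 2196) had −0.43 in replicate 1, against −0.12 to −0.065, and Coil had −0.78 in that replicate, against −0.27 to −0.12. Rbm17 there had −0.45 in replicate 4, against −0.077 to 0.07.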

How the results depend on the processing

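On array design 1, 8 members passed. Alternatives gave 0 with the failing readout kept (23 at an unadjusted p under 0.05 by limma, 18 higher and 5 lower), 51 without centring, 4 with scaled arrays, 4 with the dye-profile trend removed, 3 with plain readouts, 0 with B readouts (3 higher unadjusted), 5 with a term for the slide series, 0 and 2 within the 2000 and 3000 series (4 higher and 5 lower unadjusted in the former), 0 by the ordinary one-sample test (11 and 4 unadjusted), and 0 to 9 leaving out each replicate. On array design 2, 16 passed. Alternatives gave 60 without centring, 6 with the trend removed, 7 and 1 for treated embryos in channel 1 and channel 2 only, 4 within the 3000 series, 9 by the ordinary test, and 11 to 18 leaving out each replicate. The position trend, the robust prior, values needed in all replicates and the remaining settings kept both counts within 1.5 times. On array design 1 this held for single orientations as totals only: channel 1 gave 11 (10 higher and 1 lower) and channel 2 gave 9 (4 higher and 5 lower), against 8 higher and 0 lower. For array design 1, 1224 of all probes passed, but 50 with the failing readout kept, 120 with the trend removed and 82 without replicate 4. Without centring 6398 passed there, with scaled arrays 576 and by the ordinary test 14. For array design 2, 2114 of all probes passed, with 6655 without centring, 381 with the trend removed and 869 by the ordinary test. The cause of these differences was not tested.

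Probe pairs that differed were 0 on both designs, but 9 and 8 on array design 1 for treated embryos in channel 1 and channel 2 only, where the dye part does not cancel. On array design 2 they were 3 for channel 1 only, 2 with the position trend removed, 1 with a term for the slide series and 0 to 1 leaving out each replicate.

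Without centring these probes turned below 0. On array design 1 they were Srsf11 (−0.10), Prpf38a (−0.014), Prpf19 (−0.085), Lsm2 (−0.084), Ddx41 (−0.11), Ddx19b (−0.080) and Hnrnpf (−0.063). On array design 2 they were Snrpd2 (−0.18), Snrpe (−0.17 and −0.25), Snrpg (−0.20), Snrpb (−0.20), Snrpc (−0.25), Srsf1 (−0.21), Srsf2 (−0.42), Srsf11 (−0.23), Sf3b1 (−0.23), Sf3b2 (−0.23), Sf3b3 (−0.17), Sf3b5 (−0.16), Prpf31 (−0.33), Lsm8 (−0.31), Hnrnpa0 (−0.39), Hnrnpa1 (−0.42), Hnrnpa3 (−0.15 and −0.25), Hnrnpk (−0.26), Hnrnpu (−0.33) and Ddx1 (−0.043). With the trend removed, Hnrnpf had −0.027 on array design 1. On array design 2 Sf3b2 had −0.032, Hnrnpk −0.024, Hnrnpa3 −0.014, Snrpe −0.011, Snrpg −0.0088, Hnrnpa0 −0.27, Srsf2 −0.26, Hnrnpa1 −0.28 and Hnrnpu −0.14. For treated embryos in channel 2 only, Lsm2 had −0.067, Ddx41 −0.082 and Dhx8 −0.36 on array design 1, and Snrpe −0.22, Snrpb −0.20, Srsf11 −0.24 and Sf3b3 −0.44 on array design 2. For channel 1 only, Ddx1 had −0.59, Snrpe −0.039 and Snrpg −0.066 there. Treated and control RNA were paired within each array, and every test used these ratios.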
